A study of Mus musculus with 12 samples.

Results

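Of 22180 mouse genes measured on 12 arrays, 508 responded differently to paraquat in autophagy-deficient keratinocytes (KO) than in autophagy-competent ones (wt). The quantity compared was the log2 change under paraquat in KO minus the log2 change in wt, and a gene was called at an adjusted p under 0.05 (limma's moderated test, Benjamini-Hochberg adjustment over all 22180 genes). The 508 genes make up 2.29% of those tested. The response was higher in KO for 309 genes (1.39%) and lower for 199 (0.897%), and the median over all genes was 0. Such a difference can arise from a genotype gap that stood already in the sham cultures or from one that stood under paraquat, and the genes are set apart below by that. For 433 of the 508 the genotypes parted in sham only, for 31 under paraquat only, for 4 in both treatments and for 40 in neither taken alone. With 1 array left out at a time, between 250 and 700 genes were called.

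All cells were mouse keratinocytes with both Atg7 alleles floxed (Atg7 f/f), so the controls carry the floxed alleles too. The wt cells lacked the K14::Cre transgene and the KO cells carried it. K14 is a keratin of basal keratinocytes, and its promoter drives the recombinase there. Cultures of either genotype received paraquat at 20 µM or a sham treatment, and RNA was taken 48 h later, with 3 arrays in each of the 4 groups. The labels number the arrays of a group without naming the animals behind them. The p-values therefore speak only of the spread among these samples, which may be technical. RNA of many cells was measured together, so fewer cells of a kind and less RNA per cell cannot be told apart in any value below.

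Atg7 is an E1-like enzyme that activates the ubiquitin-like proteins Atg12 and LC3, and without it autophagosomes do not form in the usual way. Autophagy delivers cytoplasm and organelles to the lysosome and returns amino acids to the cell. Paraquat takes electrons from cellular reductases and passes them to oxygen, which yields superoxide. Cells short of amino acids, or under certain other stresses, phosphorylate the initiation factor eIF2 alpha, which favours translation of the transcription factor ATF4. ATF4 raises genes for amino acid uptake, amino acid and one-carbon synthesis and tRNA charging, a programme called the integrated stress response. In the epidermis, keratinocytes that leave the cell cycle make a cornified envelope of cross-linked proteins.

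Atg7 itself was read first, as a check of the labels. Its signal was 293, 356 and 286 in wt sham, 442, 442 and 457 in wt paraquat, 105, 111 and 103 in KO sham and 129, 148 and 96 in KO paraquat. Every KO array lay below every wt array, as the labels have it. The KO level was lower by 1.54 in sham and by 1.87 under paraquat on the log2 scale, and the responses did not differ past the threshold (log2 difference -0.32 ± 0.19 SE, adjusted p = 0.467). Which exons the probe set covers is not given in the sources used here. Median signals of the arrays ran from 42 to 45. The 9 measured keratinocyte markers, Krt14, Dsp and Perp among them, summed to between 34817 and 40059 per array, with 0 of the 9 called in the difference. Krt15, a basal keratin, was the 1 keratinocyte marker with a mean signal under 45 in every group. Arrays wt sham 2 and KO paraquat 3 stood apart from their groups in several gene lists, and the lists in which they weighed most are also given without them.

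The promoters of 2 gene groups are shown first, because one of them held many of the large rises in the difference and every member of the mitosis list in the other lay below 0. Windows of RefSeq (GRCm38.p6), from 250 bases before to 50 bases after a gene's start, were searched on both strands. The C/EBP-ATF response element, the kind of site that ATF4 dimers bind, was written TGATGNAA and stood in 1304 of 32851 windows, or 3.97%. It stood in 2 of 7 windows of the amino acid transporters, 3 of 13 of the amino acid, serine and one-carbon enzymes, 4 of 12 of the tRNA synthetases and 5 of 19 of the stress response factors. A gene with several starts has several windows, which can overlap. Below is 1 matching window from each of those 4 lists, with the matching letters in capitals on whichever strand they lie.
Slc7a11, chr3:50443564-50443863 (minus strand): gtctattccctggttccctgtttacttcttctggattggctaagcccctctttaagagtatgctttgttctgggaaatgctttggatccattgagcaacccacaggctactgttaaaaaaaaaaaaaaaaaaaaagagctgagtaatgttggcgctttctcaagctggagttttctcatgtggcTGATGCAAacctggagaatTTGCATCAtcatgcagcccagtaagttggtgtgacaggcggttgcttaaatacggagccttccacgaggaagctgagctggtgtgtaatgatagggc
Pck2, chr14:55540016-55540315 (plus strand): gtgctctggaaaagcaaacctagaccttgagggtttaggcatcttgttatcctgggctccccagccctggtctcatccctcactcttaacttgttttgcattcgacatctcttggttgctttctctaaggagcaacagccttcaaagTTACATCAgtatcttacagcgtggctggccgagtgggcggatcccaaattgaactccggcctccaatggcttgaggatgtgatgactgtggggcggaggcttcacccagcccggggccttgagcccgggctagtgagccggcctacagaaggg
Gars, chr6:55037751-55038050 (plus strand): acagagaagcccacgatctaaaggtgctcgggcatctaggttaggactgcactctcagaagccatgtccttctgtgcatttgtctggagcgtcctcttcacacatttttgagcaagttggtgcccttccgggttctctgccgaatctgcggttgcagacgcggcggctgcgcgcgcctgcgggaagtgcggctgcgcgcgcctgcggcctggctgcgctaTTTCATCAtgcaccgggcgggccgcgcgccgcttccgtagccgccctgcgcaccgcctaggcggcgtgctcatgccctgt
Trib3, chr2:152344011-152344310 (minus strand): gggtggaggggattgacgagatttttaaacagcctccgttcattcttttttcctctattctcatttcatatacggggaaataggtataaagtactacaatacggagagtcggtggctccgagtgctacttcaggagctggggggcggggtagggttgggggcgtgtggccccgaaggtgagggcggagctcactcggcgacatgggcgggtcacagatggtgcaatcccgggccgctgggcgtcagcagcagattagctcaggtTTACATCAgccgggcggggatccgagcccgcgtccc

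In Slc7a11 the window holds 2 matches, and the first begins 66 bases before the start. The match begins 103 bases before the start in Pck2, 30 bases before it in Gars and 14 bases after it in Trib3. The cell cycle genes homology region, to which complexes built on MuvB bind in many mitotic genes, was written TTTGAA and stood in 5878 of 32851 windows (17.9%). It stood in 22 of 28 windows of the mitosis list (78.6%, 20 of 26 genes) and in 3 of 24 windows of the DNA replication list (12.5%). The 2 mitosis genes with the smallest p in the difference are shown, again with the matches in capitals.
Knl1, chr2:119046869-119047168 (plus strand): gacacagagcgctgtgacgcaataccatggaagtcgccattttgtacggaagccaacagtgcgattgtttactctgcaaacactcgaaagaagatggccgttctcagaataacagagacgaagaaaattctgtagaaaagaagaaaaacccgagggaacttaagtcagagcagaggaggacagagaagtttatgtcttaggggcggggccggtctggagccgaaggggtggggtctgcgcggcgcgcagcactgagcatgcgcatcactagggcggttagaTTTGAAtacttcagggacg
Bub1b, chr2:118597961-118598260 (plus strand): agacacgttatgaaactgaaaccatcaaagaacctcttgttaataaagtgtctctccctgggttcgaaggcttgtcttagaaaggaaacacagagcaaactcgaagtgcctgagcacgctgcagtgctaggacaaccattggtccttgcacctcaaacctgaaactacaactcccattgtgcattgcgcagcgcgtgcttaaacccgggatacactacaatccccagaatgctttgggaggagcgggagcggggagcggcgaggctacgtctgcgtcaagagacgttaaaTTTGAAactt

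The match begins 31 bases after the start in Knl1 and 40 bases after it in Bub1b. A match describes these letters in this window and is neither a site shown to be bound nor a cause, and the lists were chosen with earlier results of these data known. Letters as short as these also occur often, as the share over all windows shows.

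The genotype gap lay mostly in the sham cultures. KO against wt in sham called 1016 genes higher in KO (4.58%) and 1257 lower (5.67%). Under paraquat it called 22 higher (0.0992%) and 100 lower (0.451%). Among the 433 genes that parted in sham only, the median absolute log2 gap was 0.73 in sham and 0.14 under paraquat, where the median standard error over all genes was 0.108. In the 31 that parted under paraquat only, these medians were 0.11 and 0.75. The gap was the larger in sham in 436 of the 508 genes. These classes use the same 4 group means as the difference itself, so they describe how the called genes came to be called and test nothing further. A genotype gap that missed the threshold in a treatment is not thereby shown to be absent there. At the edge of the threshold, Mafg was the last gene inside (log2 difference 0.54, adjusted p = 0.05) and Ice1 the first outside (0.54, adjusted p = 0.0505).

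**Figure D1:**
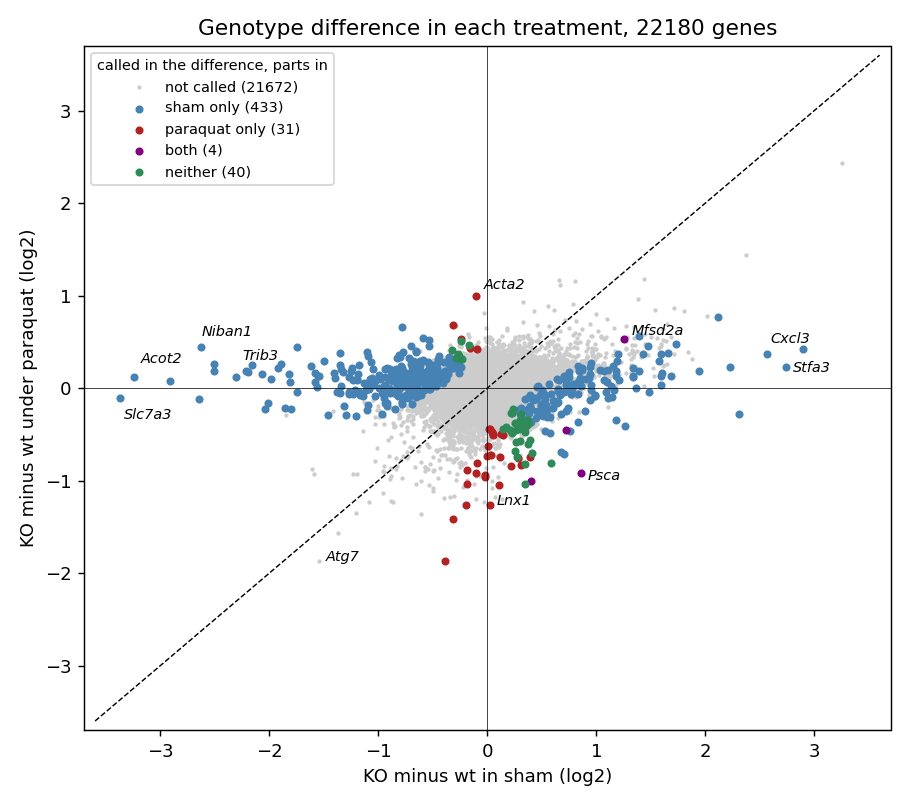
Each point is 1 of 22180 genes, with the KO minus wt log2 difference in sham on the horizontal axis and under paraquat on the vertical axis; the dashed line marks equal gaps, and colours mark the 508 called genes by the treatment in which the genotypes parted. The 433 blue genes lie along the horizontal axis, with a median absolute gap of 0.73 in sham and 0.14 under paraquat, and the 31 red genes lie along the vertical axis.

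In which group did a called gene stand out? For 268 of the 508 (52.8%) all 3 wt sham arrays lay above the other 9 arrays, a pattern found in 5.13% of all genes. For 95 the wt sham arrays lay below the other 9 (3.19% of all genes), for 63 the KO sham arrays lay above (4.5% of all genes) and for 77 the wt paraquat arrays lay above (4.84% of all genes). A gene can show more than 1 such pattern, as 174 of the 508 did. A called gene has to stand out somewhere, so these shares describe the called genes and test nothing. KO paraquat stood above the other 9 arrays in 8 called genes (280 of all 22180 genes) and below them in 6 (186 of all genes). The wt paraquat arrays lay below the other 9 in 77 called genes (826 of all genes). For the KO sham arrays that held in 62 called genes (1034 of all genes). Of the 433 genes that parted in sham only, 188 had a called response in wt alone, 63 in KO alone, 147 in both in the same direction and 35 in both in opposite directions.

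Genes of the integrated stress response mostly stood high in wt sham. Of 60 genes measured in the 4 lists of amino acid transporters, amino acid and one-carbon enzymes, tRNA synthetases and stress response factors, 37 had a higher response in KO and 0 a lower one. That is 61.7%, beside 1.39% of all genes called in that direction. All 37 parted in sham only, as did 85.2% of the 508 called genes. Their 3 wt and 3 KO arrays did not overlap in sham, which held for all 433 genes of that class. In 42 of the 60 the wt sham arrays lay above the other 9, and in 12 the KO sham arrays lay below the other 9. In sham 47 of the 60 were called lower in KO, beside 5.67% of all genes. Under paraquat 0 of the 60 were called, beside 0.0992% of all genes called higher and 0.451% lower. At such shares a count of 0 in 60 genes says nothing particular of them. The median over the 60 genes was a log2 gap of -0.74 in sham and 0.05 under paraquat, against about 0 for all genes in both.

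**Figure D2:**
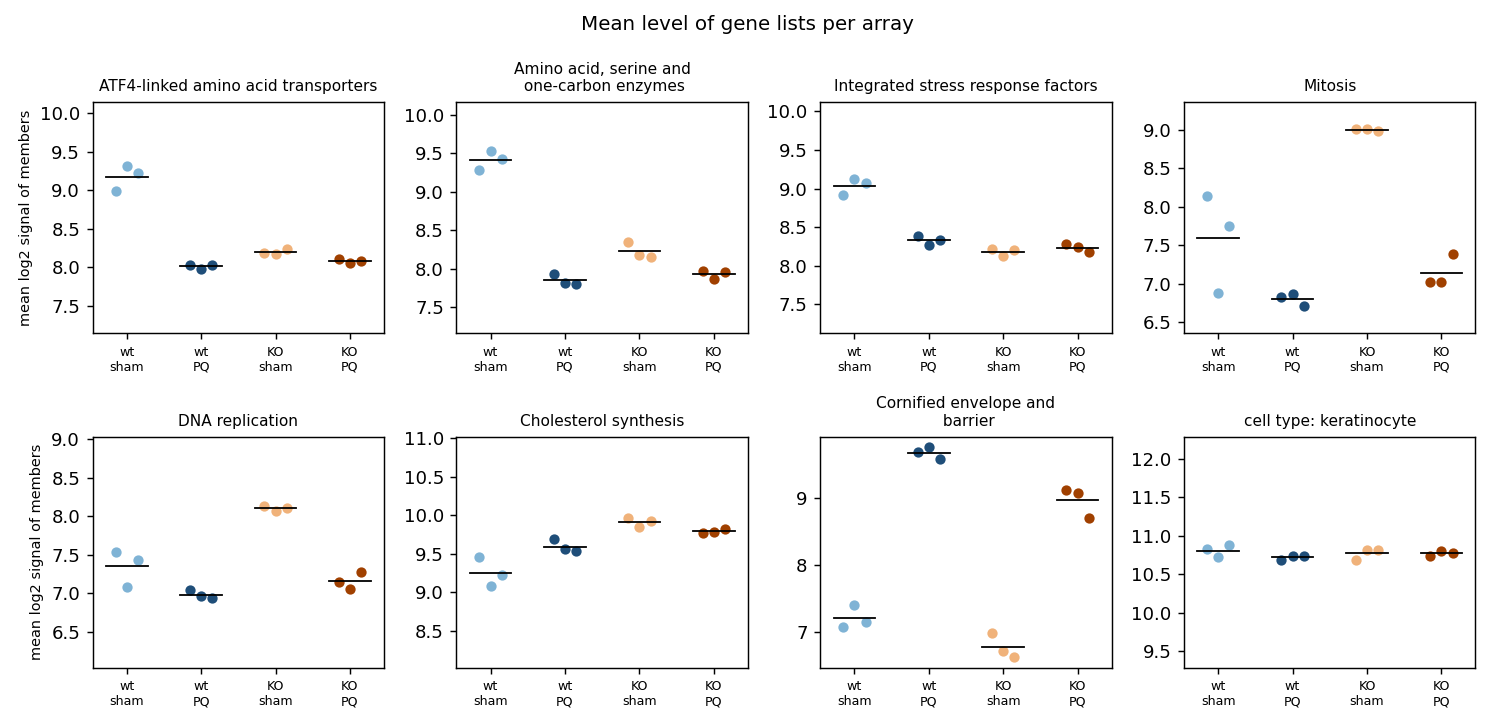
Mean log2 signal over the measured members of 8 gene lists, 1 point per array and a bar at the group mean, for wt sham, wt paraquat (PQ), KO sham and KO paraquat. The first 3 lists stand high in wt sham, mitosis and DNA replication stand high in KO sham, the cornified envelope list is high under paraquat in both genotypes and highest in wt, and the keratinocyte markers lie between 10.69 and 10.88 in every array.

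Amino acid transporters made up the first of these lists, with 6 of 10 called higher in the KO response and a median difference of 0.78. Slc7a5, the light subunit of the leucine and glutamine exchanger, gave signals of 2830, 3208 and 3289 in wt sham, 687, 655 and 656 in wt paraquat, 971, 1005 and 1130 in KO sham and 783, 772 and 692 in KO paraquat. Paraquat thus lowered it by a log2 of -2.22 in wt and of -0.47 in KO, a difference of 1.75 ± 0.13 (SE, adjusted p = 2.21e-05). The wt sham arrays were the only high ones. Slc7a3, a transporter of cationic amino acids, read 273, 523 and 391 in wt sham and 34 to 40 in the 9 other arrays. Its difference was 3.27 ± 0.24 (adjusted p = 2.36e-05), although 3 of its group means lay below 45, about the median of an array, so the size of that gap rests on signals that may be background.

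Slc7a11 behaved otherwise, because paraquat moved it in opposite directions in the 2 genotypes. It codes the cystine importer xCT, whose cargo feeds glutathione synthesis, and it counts among both ATF4 and NRF2 targets. Its signals were 480, 651 and 579 in wt sham, 339, 349 and 376 in wt paraquat, 222, 233 and 211 in KO sham and 496, 435 and 451 in KO paraquat. KO sham was the lowest group, and under paraquat the KO arrays lay above the wt arrays. The response fell by 0.67 in wt and was 1.05 in KO, a difference of 1.73 ± 0.15 (SE, adjusted p = 6.96e-05).

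Among enzymes of amino acid, serine and one-carbon synthesis, 12 of 14 were called higher in the KO response, with a median of 0.93. Pck2, the mitochondrial form of phosphoenolpyruvate carboxykinase, read 704, 697 and 790 in wt sham, 98, 85 and 91 in wt paraquat, 184, 142 and 153 in KO sham and 103, 106 and 100 in KO paraquat. KO sham lay between wt sham and the treated groups, without overlap with either. Its difference was 2.38 ± 0.14 (SE, adjusted p = 3.14e-06). Aldh1l2, a mitochondrial folate enzyme, gave 2.70 ± 0.23, Mthfd2, a folate dehydrogenase of mitochondria, 1.57 ± 0.13, and Aldh18a1, which starts proline synthesis, 1.55 ± 0.12. Cth, which makes cysteine from cystathionine, read 1049, 1744 and 1474 in wt sham against 334 to 430 in the other 9 arrays, a difference of 2.14 ± 0.21 (adjusted p = 0.000183). Asns, the asparagine synthetase, gave 0.92 ± 0.12 (adjusted p = 0.00177). Got1 and Gpt2, both aminotransferases, fell in wt and rose in KO.

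Charging of tRNAs followed the same order of groups at a smaller size. Of 19 measured cytosolic tRNA synthetase genes, the tRNA exporter Xpot included, 11 were called higher and 0 lower, with a median difference of 0.59. Nars, which charges asparagine, read 2993, 3654 and 3216 in wt sham, 1690, 1534 and 1502 in wt paraquat, 1914, 1893 and 1720 in KO sham and 1778, 1768 and 1716 in KO paraquat. Its difference was 0.99 ± 0.13 (SE, adjusted p = 0.0015). Gars, which charges glycine, gave 0.83 ± 0.11 and Xpot 0.94 ± 0.12. Only wt sham was high in all 3 genes.

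Of 17 stress response factors, 8 were called higher in the KO response. Trib3, a pseudokinase induced by ATF4 and CHOP, read 536, 624 and 655 in wt sham, 84, 76 and 86 in wt paraquat, 129, 130 and 130 in KO sham and 85, 101 and 94 in KO paraquat. Its difference of 2.40 ± 0.14 had an adjusted p of 1.85e-06. Atf5, a transcription factor close to ATF4, fell under paraquat in wt (by 1.16) and rose in KO (0.49), a difference of 1.65 ± 0.19 (SE, adjusted p = 0.000658). Sesn2, a leucine sensor that restrains mTORC1, stood apart from these. Its signals were 536, 663 and 677 in wt sham, 635, 647 and 655 in wt paraquat, 256, 284 and 265 in KO sham and 668, 664 and 581 in KO paraquat, so that KO sham alone was low. The response was 0.05 in wt and 1.25 in KO, a difference of 1.19 ± 0.14 (adjusted p = 0.000745). Stc2, a secreted glycoprotein, gave 1.57 ± 0.18 and Chac1, which degrades glutathione, 1.34 ± 0.17.

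Arms of the unfolded protein response outside ATF4 took a smaller share, with a median of 0.01. Of 21 genes, 0 were called lower and 4 higher (19%, beside 1.39% of all genes). They were the sensor Atf6 (0.92 ± 0.15), Herpud1 (0.84 ± 0.12) and Sel1l (0.81 ± 0.12), both of the machinery that removes misfolded proteins from the endoplasmic reticulum, and the oxidase Ero1a (0.76 ± 0.11). In each of the 4, the genotypes parted in sham only. With each array left out in turn, the stress response lists of the paragraphs above kept called genes, in counts that varied. Enzymes held 10 to 12 calls, transporters 5 to 7, tRNA synthetases 9 to 12 and factors 6 to 11.

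**Figure D3:**
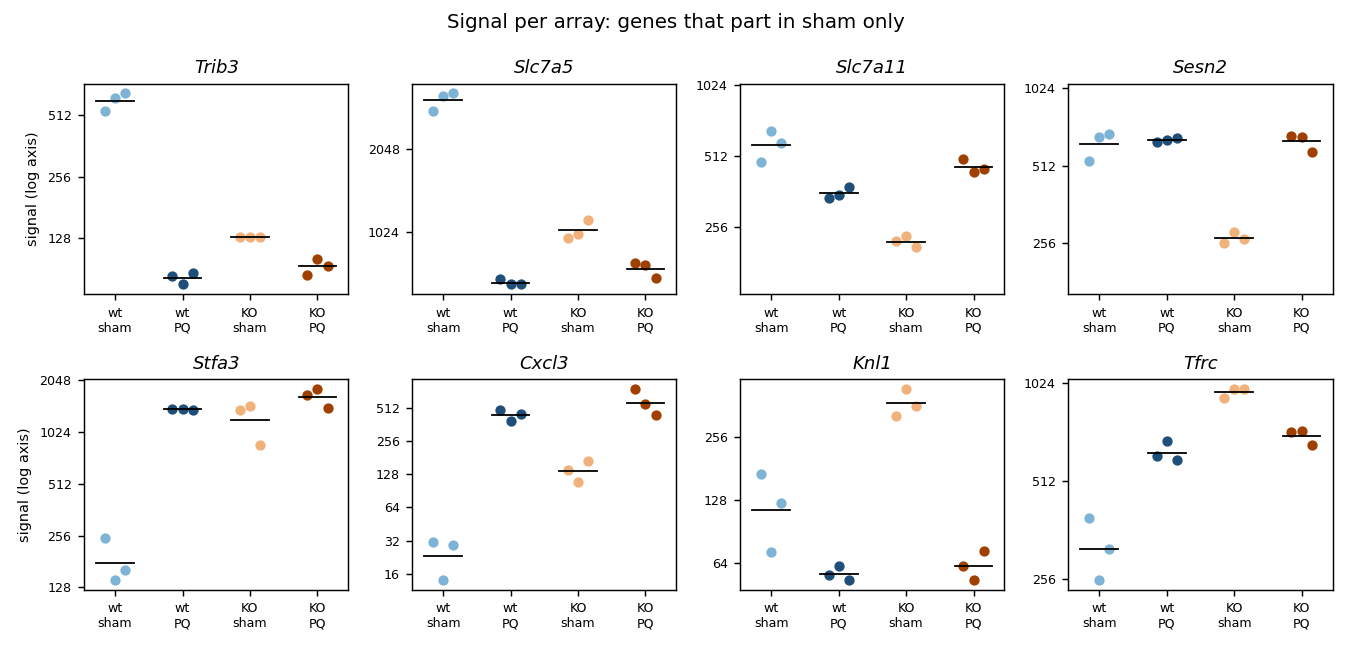
Signal per array on a log axis for 8 genes that parted in sham only, with a bar at the geometric mean of each group of 3 arrays (PQ, paraquat). Trib3 and Slc7a5 are high in wt sham alone, Sesn2 is low in KO sham alone, Stfa3 is low in wt sham alone, and Knl1 is highest in KO sham, with wt sham 2 at 72 beside 170 and 124 in the other wt sham arrays.

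The largest rise in the difference belonged to Acot2, a thioesterase that splits long-chain acyl-CoA in mitochondria. It read 1891, 4427 and 3075 in wt sham, 442, 384 and 438 in wt paraquat, 345, 304 and 287 in KO sham and 429, 482 and 461 in KO paraquat. Its wt response was -2.81, its KO response 0.55, and the difference 3.37 ± 0.31 (SE, adjusted p = 0.000106). The array wt sham 2 was the highest, and without it the difference was 3.07. It was also the highest in B4galnt2, Car6 and Fam171b, whose differences were 2.98, 2.77 and 2.54 with it and 2.63, 2.20 and 2.17 without it, all called. Niban1, a regulator of translation under stress, gave 3.07 ± 0.16 (adjusted p = 1.02e-06), with 810, 937 and 947 in wt sham against 72 to 157 elsewhere. Reep6, a protein that shapes the endoplasmic reticulum, gave 2.43 ± 0.25, and Cyb5r1, a cytochrome b5 reductase, 2.21 ± 0.17. Slc7a3, B4galnt2, Fam171b and Car6, a secreted carbonic anhydrase, each had 3 group means under 45, so the sizes of their gaps rest on signals that may be background. Ddr2, a collagen receptor, had group means under 45 too, and Aldh1l2 had 1. In all, 16 of the 72 named genes had such a mean.

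Matrix and protease genes held 5 called members of 29, all with a higher response in KO. That is 17.2%, beside 1.39% of all genes called in that direction. Fn1, which codes fibronectin, read 2116, 1600 and 2237 in wt sham, 782, 783 and 1062 in KO sham, 85, 84 and 84 in wt paraquat and 97, 83 and 126 in KO paraquat. Paraquat lowered it in both genotypes, with a log2 response of -4.54 in wt and -3.11 in KO, and the difference of the responses was 1.43 ± 0.23 (adjusted p = 0.00691). The genotypes were apart in sham and overlapped under paraquat. Mmp13, a collagenase, read 238, 409 and 278 in wt sham, 260, 244 and 253 in wt paraquat, 107, 119 and 94 in KO sham and 414, 301 and 235 in KO paraquat. KO sham alone was low, and the difference was 1.79 ± 0.29 (adjusted p = 0.00632). Tgfb1, a cytokine that induces matrix genes, gave 0.68 ± 0.11. Vegfa, the endothelial growth factor, gave 0.94 ± 0.17 with wt sham alone high.

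Another set of genes stood low in wt sham alone. Stfa3, a stefin that inhibits cysteine proteases, read 249, 141 and 162 in wt sham, 1391, 1389 and 1367 in wt paraquat, 1375, 1441 and 856 in KO sham and 1666, 1812 and 1407 in KO paraquat. Untreated KO cells thus lay near the level that wt cells reached under paraquat, and the difference was -2.51 ± 0.30 (SE, adjusted p = 0.000798). Csta3, another stefin, gave -2.47 ± 0.39 and Stfa1 -1.53 ± 0.31, although stefin genes are near-identical copies and their probe sets may share signal. Stfa1 lost its call with 7 of the 12 arrays left out singly.

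Il24, a cytokine of the IL-20 family that acts on keratinocytes, read 295, 264 and 278 in wt sham, 2545, 2221 and 2376 in wt paraquat, 1256, 959 and 1027 in KO sham and 2853, 2965 and 2358 in KO paraquat. Paraquat raised it by 3.09 in wt and by 1.34 in KO, and the arrays of the 2 genotypes overlapped under paraquat only. The difference was -1.76 ± 0.16 (adjusted p = 0.000122). Of the 6 ligands of the neutrophil receptor CXCR2, 3 were called lower, beside 0.897% of all genes. Cxcl3 read 31, 14 and 29 in wt sham, 490, 392 and 447 in wt paraquat, 141, 109 and 169 in KO sham and 762, 551 and 441 in KO paraquat, a difference of -2.19 ± 0.39 (adjusted p = 0.0114). Its wt sham mean lay under 45. Cxcl1 gave -0.60 ± 0.14 and Cxcl5 -0.83 ± 0.19, and they lost their calls with 9 and 10 of the 12 arrays left out singly.

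Gsta4, a glutathione transferase that clears the lipid peroxidation product 4-hydroxynonenal, rose under paraquat in both genotypes but from different levels. Its signals were 465, 391 and 412 in wt sham, 898, 791 and 677 in KO sham, 4780, 4792 and 4722 in wt paraquat and 4337, 3947 and 3739 in KO paraquat. KO lay above wt in sham and below it under paraquat, and the difference was -1.15 ± 0.15 (SE, adjusted p = 0.00181). Other NRF2 targets moved less together. Of 25 measured, 2 were called higher (Slc7a11 and the exporter Abcc4) and 1 lower (Gsta4), with a median of -0.07. These calls make up 12% of the list, beside 2.29% of all genes. Among 22 superoxide and peroxide enzymes, the group that acts on the products of paraquat, limma called 0, with differences from -0.86 to 0.31. At the 2.29% called over all genes, a count of 0 in so short a list says nothing particular of it.

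Cell cycle genes stood high in KO sham. All 30 measured mitosis genes were called higher in KO in sham, beside 4.58% of all genes, with a median log2 gap of 1.39. In all 30 the KO sham arrays lay above the other 9, a pattern found in 4.5% of all genes. Under paraquat 0 of the 30 were called, beside 0.0992% of all genes called higher and 0.451% lower, with a median gap of 0.34. The KO response was the lower one in all 30, with a median of -1.09. Yet 5 passed the test in the difference, or 16.7% beside 0.897% of all genes. Knl1, a kinetochore scaffold, read 170, 72 and 124 in wt sham, 324, 434 and 360 in KO sham, 56, 62 and 53 in wt paraquat and 62, 53 and 73 in KO paraquat. Its response was -1.01 in wt and -2.57 in KO, a difference of -1.56 ± 0.34 (SE, adjusted p = 0.0305). Bub1b, a spindle checkpoint kinase, gave -1.56 ± 0.35, and Cdca8, a chromosomal passenger protein, -0.91 ± 0.21.

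The count of called mitosis genes depends on single arrays. The mean log2 signal of the list was 8.14, 6.88 and 7.75 in wt sham, 9.01, 9.01 and 8.98 in KO sham, 6.83, 6.86 and 6.71 in wt paraquat and 7.02, 7.02 and 7.38 in KO paraquat. The array wt sham 2 thus lay near the paraquat level. Without it 7 of the 30 were called and the median was -0.71. Without wt sham 1 there were 22 calls, without wt sham 3 there were 0, as there were without KO sham 2 or 3, without any 1 of the wt paraquat arrays and without KO paraquat 1 or 2, and without both wt sham 2 and KO paraquat 3 there were 11. Knl1, Bub1b and Cdca8 lost their calls in 8, 10 and 9 of the 12 fits with an array left out. The genotype gap in sham did not depend on wt sham 2, with 30 of 30 called higher in KO also without it. In the leave-one-out fits 29 or 30 were called in sham.

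**Figure D4:**
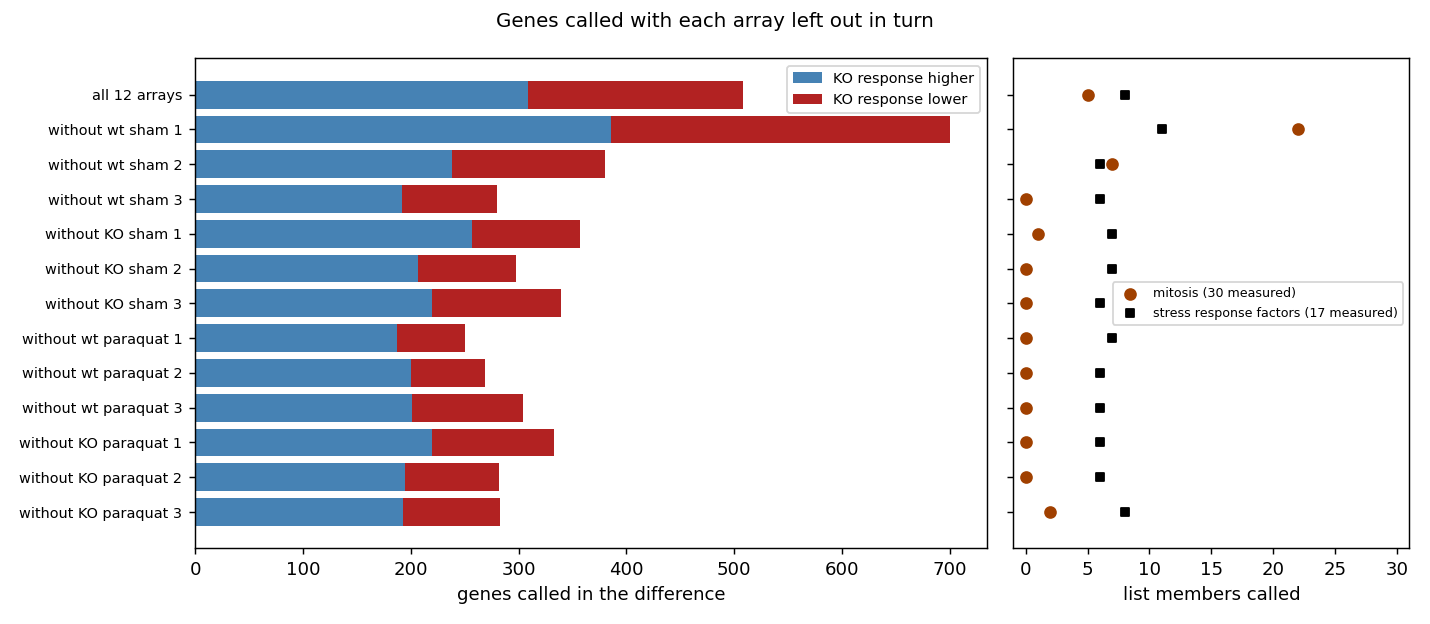
Left, the number of genes called in the difference with all 12 arrays and with each array left out in turn, split by whether the KO response was higher or lower; right, the number of called members of the mitosis list and of the stress response factors in the same fits. Mitosis ranges from 0 to 22 called genes of 30, stress response factors from 6 to 11 of 17.

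DNA replication genes gave a like picture at a smaller size, with 24 of 28 called higher in KO in sham, beside 4.58% of all genes. Under paraquat 0 were called, beside 0.0992% of all genes called higher and 0.451% lower. In the difference 6 were called lower (21.4%, beside 0.897% of all genes), with a median of -0.60. Cdc6, a loader of the replicative helicase, read 75, 54 and 77 in wt sham, 154, 133 and 149 in KO sham, 61, 64 and 65 in wt paraquat and 59, 69 and 71 in KO paraquat. It was high in KO sham alone, and its difference was -1.03 ± 0.18 (SE, adjusted p = 0.0106). Mcm7, a helicase subunit, gave -0.80 ± 0.15 and Orc1, of the origin recognition complex, -0.65 ± 0.12. The list held 3 to 12 calls with single arrays left out. Of 20 DNA repair genes, 15 were called higher in KO in sham, beside 4.58% of all genes, and 10 without wt sham 2 or without KO sham 1. In the difference 1 was called lower, Fancb (-0.88 ± 0.19, adjusted p = 0.033), against 0 without wt sham 2 and 0 in 10 of the 12 fits with an array left out. That is 5% of the list, which so short a list cannot set apart from the 0.897% of all genes.

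Lin9, a subunit of the MuvB complex, was 1 of the 4 genes that parted in both treatments. It read 185, 151 and 181 in wt sham, 267, 263 and 261 in wt paraquat, 288, 269 and 293 in KO sham and 197, 195 and 184 in KO paraquat. Paraquat raised it in wt by 0.62 and lowered it in KO (log2 -0.56), a difference of -1.18 ± 0.12 (SE, adjusted p = 0.000344). KO lay above wt in sham and below wt under paraquat, with no overlap in either. Mfsd2a, a lipid transporter, was higher in KO in both treatments, by 1.26 in sham and by 0.53 under paraquat.

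Sterol synthesis genes were also higher in KO in sham. Of 19 cholesterol synthesis genes, 17 were called higher in KO in sham, beside 4.58% of all genes. Under paraquat 0 were called, beside 0.0992% of all genes called higher and 0.451% lower. In the difference 4 were called lower, beside 0.897% of all genes, with all 19 below 0 and a median of -0.44. Cyp51, which removes a methyl group from lanosterol, read 1235, 855 and 1078 in wt sham, 1995, 1952 and 2068 in KO sham, 1759, 1873 and 1616 in wt paraquat and 1918, 1876 and 2031 in KO paraquat. Here wt sham was the low group, and the difference was -0.79 ± 0.16 (SE, adjusted p = 0.0254). The list held 0 to 9 calls with single arrays left out, and 1 without wt sham 2. Cyp51 lost its call in 8 of those 12 fits. Insig1, a sensor that holds back sterol synthesis, gave -0.72 ± 0.16.

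Tfrc, the transferrin receptor that takes up iron, moved in opposite directions. It read 393, 254 and 316 in wt sham, 610, 678 and 592 in wt paraquat, 917, 978 and 980 in KO sham and 721, 730 and 659 in KO paraquat. It rose in wt by 0.98 and fell in KO (log2 -0.45), a difference of -1.43 ± 0.18 (SE, adjusted p = 0.00138). Elovl6, an elongase of fatty acids, did the same, with a wt response of 0.60, a KO response of -0.69 and a difference of -1.29 ± 0.24 (adjusted p = 0.0143). In all, 39 called genes had called responses of opposite sign. Of these, 27 fell in wt and rose in KO, and 12 rose in wt and fell in KO.

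Genes that parted under paraquat were fewer, and their number depends on single arrays. It was 31 with all arrays, 6 without wt paraquat 1, 8 without KO paraquat 3, 10 without wt paraquat 2 or wt sham 3, 15 to 28 with any 1 of 7 other arrays left out, and 37 without wt sham 2. Of the 31, the KO response was lower in 26 and higher in 5, and in 26 of the 31 the wt paraquat arrays lay above the other 9 arrays. Most of them rose under paraquat in both genotypes, and further in wt (23 of the 26 with a lower KO response had both responses called in the same direction). Psca, a surface protein anchored by a lipid, parted in both treatments and had the largest fall among the genes with a gap under paraquat. It read 86, 79 and 58 in wt sham, 132, 106 and 167 in KO sham, 1973, 1886 and 1780 in wt paraquat and 1017, 1016 and 947 in KO paraquat. The response was 4.68 in wt and 2.90 in KO, a difference of -1.78 ± 0.23 (SE, adjusted p = 0.00138), and KO changed from above wt in sham to below it under paraquat.

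**Figure D5:**
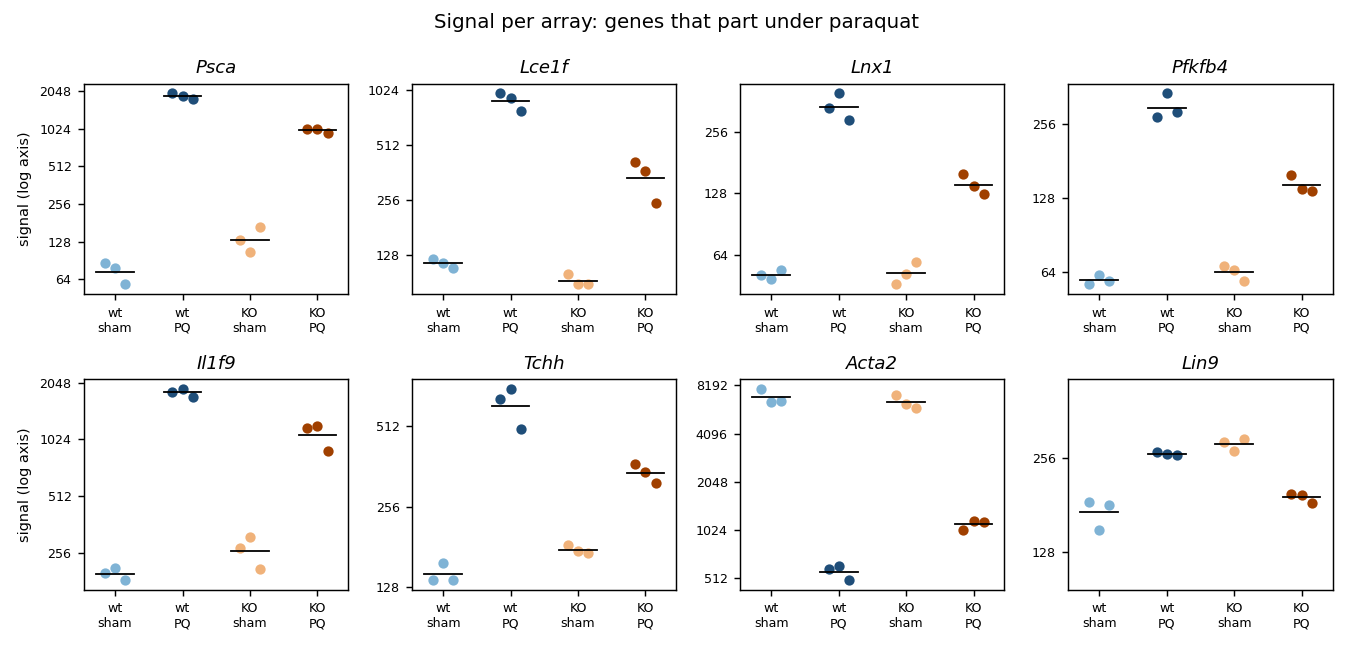
Signal per array on a log axis for 8 genes in which the genotypes parted under paraquat, with a bar at the geometric mean of each group of 3 arrays (PQ, paraquat). In Lnx1 and Pfkfb4 the sham groups coincide and wt rises further than KO, Acta2 falls further in wt, and in Lin9 the order of the genotypes turns over.

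Lnx1, a ubiquitin ligase that acts on Numb, and Pfkfb4, which sets the level of the glycolytic regulator fructose 2,6-bisphosphate, showed the plainest form. Lnx1 read 51, 49 and 54 in wt sham, 46, 52 and 59 in KO sham, 334, 395 and 292 in wt paraquat and 159, 139 and 127 in KO paraquat. The genotype gap was 0.02 in sham and -1.26 under paraquat, a difference of -1.28 ± 0.18 (SE, adjusted p = 0.00269). Pfkfb4 read 57, 62 and 59 in wt sham, 68, 65 and 59 in KO sham, 271, 340 and 284 in wt paraquat and 158, 139 and 136 in KO paraquat, a difference of -1.15 ± 0.14 (adjusted p = 0.00118). Glycolysis genes as a list had 0 of 15 called in the difference by limma, from -0.43 to 0.30. With 2.29% of all genes called, a count of 0 among 15 says nothing particular of that list.

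Il1f9 and Tchh are known from the upper epidermis or its appendages. Il1f9, an alarmin of the IL-1 family, read 201, 212 and 183 in wt sham, 271, 310 and 210 in KO sham, 1837, 1896 and 1727 in wt paraquat and 1180, 1209 and 890 in KO paraquat (difference -1.14 ± 0.20 SE, adjusted p = 0.0116). Tchh, trichohyalin of the hair follicle and cornified cells, read 136, 158 and 136 in wt sham, 184, 175 and 172 in KO sham, 645, 706 and 501 in wt paraquat and 369, 344 and 315 in KO paraquat. Its difference was -1.14 ± 0.17 (adjusted p = 0.00375). Both genes rose less in KO, and KO paraquat 3 was the lowest treated array in each. Without that array Il1f9 was still called (adjusted p = 0.0253).

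Late cornified envelope genes lie in a cluster and code small proteins of the cornified envelope. Lce1f read 122, 115 and 108 in wt sham, 101, 89 and 88 in KO sham, 989, 932 and 788 in wt paraquat and 416, 371 and 247 in KO paraquat. The gap was -0.31 in sham and -1.42 under paraquat, and the difference of -1.10 ± 0.23 (SE, adjusted p = 0.0236) lost its call with 6 of 12 arrays left out singly. Lce1k gave -1.48 ± 0.18 (adjusted p = 0.000848) and Lce6a -1.41 ± 0.15, both from low signals with 3 group means under 45. Lce genes are near-identical copies whose probe sets may share signal. The list of 37 cornified envelope and barrier genes did not hold Lce1k or Lce6a, as its lowest difference was -1.38. Of its 37 genes, 3 were called lower in the difference and 0 higher, with a median of -0.21. The genotypes parted under paraquat only in 2 of the 3 and in neither treatment in 1. These 3 make up 8.11% of the list, beside 0.897% of all genes called lower.

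For that list a genotype gap stood in both treatments, with 10 of 37 called lower in KO in sham and 8 under paraquat, against 5.67% and 0.451% of all genes. The median gap was -0.36 in sham and -0.69 under paraquat. The mean log2 signal per array was 7.08 to 7.41 in wt sham, 6.62 to 6.99 in KO sham, 9.59 to 9.77 in wt paraquat and 8.71 to 9.12 in KO paraquat, where KO paraquat 3 was the lowest. Without that array 3 of the 37 were lower under paraquat, 1 was called in the difference and the median difference was -0.08. Without wt sham 2 the list had 2 calls in the difference, and without both arrays 1. It had 0 without wt sham 3 and 0 without wt paraquat 2.

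Several genes with other roles parted under paraquat as well. Map3k8, a kinase of inflammatory signalling, gave -1.05 ± 0.21, Fam3b, a secreted protein, -1.04 ± 0.17, and Foxq1, a forkhead transcription factor, -0.91 ± 0.18. Elf3, an epithelial transcription factor that acts in keratinocyte differentiation, gave -0.73 ± 0.17, and Ppl, the desmosomal protein periplakin, -0.56 ± 0.13. Lpin2, a phosphatidate phosphatase, gave -0.94 ± 0.21 but lost its call with 8 of 12 arrays left out singly. In all 6 the wt response was the larger rise. Gadd45b, a stress sensor, read 679, 605 and 596 in wt sham, 749, 618 and 717 in KO sham, 1782, 1778 and 1596 in wt paraquat and 1327, 1114 and 1200 in KO paraquat (difference -0.65 ± 0.14, adjusted p = 0.0322).

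Acta2, smooth muscle actin, was the largest of the 5 genes that parted under paraquat only with a higher KO response. It read 7792, 6471 and 6562 in wt sham, 7137, 6287 and 5948 in KO sham, 579, 608 and 494 in wt paraquat and 1026, 1160 and 1151 in KO paraquat. It fell in both genotypes, with a log2 response of -3.63 in wt and -2.54 in KO, a difference of 1.10 ± 0.15 (SE, adjusted p = 0.00286). Thap6, a zinc finger protein, gave 0.78 ± 0.14 and Prxl2c, a peroxiredoxin-like protein, 0.59 ± 0.12.

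Genes of autophagy and of other protein disposal held few calls, in shares that lists this short cannot set apart from the 2.29% of all genes. Of 30 core autophagy genes 1 was called, Ulk2, a kinase that starts autophagy (0.97 ± 0.11 SE, adjusted p = 0.000738). Of 11 selective autophagy receptors 1 was called, Sqstm1, which codes p62 (1.09 ± 0.20, adjusted p = 0.0134). Sqstm1 transcript was lower in KO by a log2 of -1.17 in sham and lay at -0.08 under paraquat, and protein was not measured. Of 26 lysosome genes 2 were called higher, and of 32 proteasome genes 1. The p53 target list had 4 called higher and 3 lower of 29, or 24.1% beside the 2.29% of all genes. It shares Sesn2 with the stress response factors, and its members called lower, Ckap2, Cd80 and Gtse1, code a spindle protein, a costimulatory ligand and a microtubule protein.

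Further lists with 0 called members by limma were basal keratinocyte adhesion (15 genes), oxidative phosphorylation (32), ribosomal proteins (19), histones (9), cytosolic heat shock (14) and the phospholipase, prostaglandin and lipoxygenase genes (25). At the 2.29% called over all genes, a list of this size would hold less than 1 call, so these counts of 0 say nothing particular of the lists. Over all genes, 3376 lay at an unadjusted p under 0.05. Markers of other cell types were also read, since a keratinocyte culture could hold such cells. Of 38 such markers, for endothelium, melanocytes, fibroblasts, immune cells and the appendages of the skin, 1 was called. It was Cd68, also a lysosomal protein, at -0.59 ± 0.13, with mean signals of 587.3 in wt sham, 650.0 in KO sham, 1825 in wt paraquat and 1346 in KO paraquat. The summed signals of most marker lists were higher under paraquat than in sham. Fibroblast markers summed to between 466 and 552 in sham and between 559 and 644 under paraquat, and melanocyte markers to between 427 and 532 and between 921 and 1013, with overlap of the genotypes in both treatments. Leukocyte and Langerhans markers summed to between 722 and 837 in sham, to between 1946 and 2036 in wt paraquat and to between 1368 and 1641 in KO paraquat, and Cd68 made up most of that signal. Endothelial markers summed to between 200 and 238 in sham, 399 and 476 in wt paraquat and 330 and 370 in KO paraquat. Their 1 member with a large level there was Kdr, at a mean of 248.3 in wt paraquat and 148.7 in KO paraquat. Hair follicle, sebaceous and Merkel markers summed to between 2946 and 3230 in sham, 2817 and 2970 in wt paraquat and 2466 and 2589 in KO paraquat. In these last 3 lists the genotypes did not overlap under paraquat, and their part in the results was not tested. No marker was at a signal of 0. Ptprc, which codes the leukocyte antigen CD45, and Dcn, of fibroblasts, had a mean signal under 45 in every group.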

How the data were processed

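Total RNA of 12 keratinocyte samples was hybridised to Affymetrix arrays, 1 array each. The deposited intensity values were made by the authors with RMA, and the software was Affymetrix Expression Console, version 1.3.1.187; both are named per the submitters' processing notes. They are whole numbers from 3 to 17695 and were read as RMA signals on a linear scale, so their log2 was taken. Rounding makes the log2 of dim probe sets coarse. Of 41345 probe sets, 23521 carried 1 symbol in the platform annotation, 1814 several and 16010 none. For 1082 genes with more than 1 probe set the one with the highest mean stood for the gene, which left 22180 genes and no filter on signal. All 12 columns matched a sample. The genome build behind the probe sets is not given in the sources used here.

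Limma 3.58.1 (lmFit, eBayes) in R 4.3.3 fitted 1 mean per group over the 12 arrays with no block. The tested contrast was the KO response minus the wt response, beside KO against wt in each treatment and paraquat against sham in each genotype, all 2-sided, with Benjamini-Hochberg adjustment over 22180 genes and a threshold of 0.05. The median standard error was 0.153 for the difference, and having 3 arrays per group limits the precision. The script was tested on simulated data.

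The members, the 43 gene lists (910 entries, 821 measured, 9 of them through an older symbol) and all rules were chosen with earlier results of these data known. Named genes were Atg7, the 15 largest rises and 15 largest falls, the 8 largest differences among genes parting in sham only and under paraquat only, and up to 3 members, in order of p, of each list with at least 3 called. Predicted, clone-named, small RNA, olfactory and receptor-segment genes and those under a mean signal of 45 in every group were left out of the size rules. Other genes named here (list members such as Asns and Sqstm1, and Lin9, Mfsd2a, Gadd45b, Map3k8, Fam3b, Foxq1, Ppl, Thap6 and Prxl2c) and the pattern of 1 group above or below the other 9 arrays were chosen after their values were seen. Alternatives were a second quantile normalization, median centring, a filter on dim genes, 2 other ways to treat several probe sets, 16 added before the log2, a variance trend, array weights, the replicate number as a block, classes by size, a 2-fold minimum and arrays left out. Same-numbered arrays had correlations of deviations from -0.073 to 0.09, and differently numbered ones from -0.126 to 0.145. Correlations this near 0 cannot tell whether same-numbered arrays share an animal or culture.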

Additional observations from a re-analysis of the deposited data

Results flagged for a closer look

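The paraquat response differed between the genotypes, by a test of the difference itself, in 508 genes. For the called genes named here the log2 difference (KO response minus wt response) stands in brackets. The genotypes parted in sham only and the KO response was higher in Acot2 (3.37), Slc7a3 (3.27), Niban1 (3.07), B4galnt2 (2.98), Car6 (2.77), Aldh1l2 (2.70), Fam171b (2.54), Reep6 (2.43) and Heg1 (2.41). Smaller such differences were found for Trib3 (2.40), Pck2 (2.38), Cyb5r1 (2.21), Ddr2 (2.19), Gfra2 (2.16), Cth (2.14), Mmp13 (1.79), Slc7a5 (1.75) and Slc7a11 (1.73). Still smaller ones were those of Atf5 (1.65), Stc2 (1.57), Mthfd2 (1.57), Aldh18a1 (1.55), Fn1 (1.43), Sesn2 (1.19), Mmp9 (1.03), Nars (0.99) and Xpot (0.94). At the lower end of this set were Vegfa (0.94), Herpud1 (0.84), Gars (0.83), Sel1l (0.81), Abcc4 (0.78) and Ero1a (0.76). Among genes that parted under paraquat only, the KO response was higher in Acta2 (1.10).

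The KO response was the lower one, with the genotypes apart in sham only, in Clca3a2 (-2.59), Stfa3 (-2.51), Csta3 (-2.47), Cxcl3 (-2.19), Depdc1a (-2.0), Il24 (-1.76), Bub1b (-1.56), Knl1 (-1.56) and Stfa1 (-1.53). Next in size came Tmprss11g (-1.52), Igfbp3 (-1.47), Tfrc (-1.43), Elovl6 (-1.29), Gsta4 (-1.15), Cd80 (-1.12), Cdc6 (-1.03), Cdca8 (-0.91) and Cxcl5 (-0.83). Differences nearer to 0 were those of Mcm7 (-0.80), Cyp51 (-0.79), Sc5d (-0.76), Gtse1 (-0.75), Pmvk (-0.67), Orc1 (-0.65), Cxcl1 (-0.60) and Acly (-0.57). The genotypes parted under paraquat, in both treatments or in neither, with a lower KO response, in Psca (-1.78), Lce1k (-1.48), Lce6a (-1.41), Lce3a (-1.38), Lnx1 (-1.28), Pfkfb4 (-1.15), Il1f9 (-1.14), Tchh (-1.14) and Lce1f (-1.10). This held as well for Lce1a1 (-1.07) and Lpin2 (-0.94). Heg1, a receptor of endothelial junctions, had more than 1 probe set, and its difference was 1.20 with their mean.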

How the results depend on the processing

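No named gene changed direction under any alternative run. A list median near 0 could change sign, as for the unfolded protein response (0.01 with all arrays, -0.04 without KO paraquat 3). For the named genes, 699 results under other settings stayed on their side of the threshold and 19 did not, and with single arrays left out 709 stayed and 155 did not. Counts depended more on the setting. With the filter on dim genes, 540 genes had a higher and 354 a lower KO response, 228 were called under paraquat, and the classes held 755 (sham only), 62 (paraquat only), 11 (both) and 66 (neither). With 16 added before the log2 these were 535, 347, 231, 730, 72, 10 and 70. With a variance trend 468 were higher, 315 lower, 223 called under paraquat, 59 paraquat only, 10 both and 67 neither. Array weights gave 249 called under paraquat, 49 paraquat only and 9 both. Without wt sham 2 and KO paraquat 3 together, 174 were higher and 94 lower, with 1360 called in sham, 44 under paraquat and classes of 243, 11, 0 and 14. Classes by size (a log2 gap of at least 1) held 117, 8, 0 and 383, since most called gaps are below 1, and 93 higher and 60 lower genes also differed by at least 2-fold. With each array left out in turn, higher calls ran from 187 to 386, lower from 63 to 314, sham calls from 1418 to 2363, paraquat calls from 30 to 171, and the classes from 233 to 620, 6 to 37, 1 to 6 and 10 to 46. In these fits 244 to 445 of the 508 genes were called again. The highest counts came without wt sham 1 (386 and 314) and the fewest genes without wt paraquat 1 (250).

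The replicate block gave 266 higher and 173 lower calls, 397 of them among the 508, and moved none of the overall counts or classes by over 1.5 times. In the gene lists it gave 3 called mitosis genes in place of 5 and 9 DNA replication genes in place of 6. Among same-numbered arrays, 0 of 18 pairs had a correlation of deviations over 0.1, which cannot show whether they share animals. The number of arrays, 3 per group, and signals near the array median limit what can be seen. Bub1b, Igfbp3 and Cxcl5 lost their calls in 10 of 12 fits with an array left out, and Sc5d, Acly and Lce3a in 11.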

Other observations

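Probe sets outside the 22180 genes were tested in a fit over all 41345. Of 16010 with no symbol in the platform annotation, 50 were called in the difference (0.312%, 23 of them with a higher KO response). Of 1814 with several symbols, 12 were called (0.662%). Of 23521 with 1 symbol, 235 were called in that fit (0.999%).

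Some called genes outside the gene lists moved in opposite directions in the genotypes and were chosen after their values were seen. Ghitm, a protein of the mitochondrial inner membrane, read 2049, 2554 and 2244 in wt sham, 1629, 1655 and 1637 in wt paraquat, 1342, 1192 and 1043 in KO sham and 1596, 1701 and 1609 in KO paraquat (difference 0.93 ± 0.14 SE, adjusted p = 0.00527). The genotypes were level under paraquat, where the gap was -0.01 (Ghitm). Mtm1, a phosphatase of endosomal phosphoinositides, gave 1.29 ± 0.14 (adjusted p = 0.000442), and Hdac4, a histone deacetylase, 0.80 ± 0.12 (adjusted p = 0.00408). Kifc1, a mitotic kinesin, rose in wt and fell in KO, a difference of -1.24 ± 0.18 (adjusted p = 0.00329).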
